A study of Rattus norvegicus with 12 samples.

Results

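Here 9 genes of osteocytes and of phosphate regulation, picked by their symbols among 14217 genes measured in rat tibia, are described across a soy diet and estradiol: Phex, Dmp1, Mepe, Sost, Fgf23, Pdpn, Enpp1, Ankh and Phospho1. Osteocytes are the cells that osteoblasts become once they are walled into the bone matrix, and they sense load, restrain bone formation and release the hormone that sets phosphate loss in the kidney. Their products fall into a few roles. Sclerostin, from Sost, blocks Wnt signalling to osteoblasts. Fgf23 is the phosphate-wasting hormone, and the endopeptidase Phex and the matrix phosphoprotein Dmp1 hold it down, since loss of either raises it and softens bone. Mepe is a matrix phosphoglycoprotein that carries an acidic peptide able to block mineral deposition. Podoplanin (Pdpn, also called E11) marks young osteocytes as they grow dendrites, and also lines lymphatic vessels. Enpp1 makes pyrophosphate, an inhibitor of mineral, Ankh moves ATP and pyrophosphate out of the cell, and Phospho1 is a phosphatase that frees phosphate inside matrix vesicles.

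These 9 genes were followed across 4 groups of intact, pre-pubertal female Sprague-Dawley rats. CAS rats ate an AIN-93G diet with casein, SPI rats the same diet with soy protein isolate, E2 rats the casein diet with 17β-estradiol given by subcutaneous mini-pump at 10 µg/kg/d, and SPI+E2 rats both; by the labels treatment ran from postnatal day 21 to postnatal day 34. RNA came from the right tibia after the marrow had been aspirated, and each of the 3 arrays a group held equal amounts of RNA from a pool of 2 to 3 rats, so the spread given here is that between pools, and so is the spread that every p-value measures. A member was any probe set of the rat expression array whose annotation gave exactly 1 gene symbol and whose symbol was on the list. Ank is an older symbol of Ankh, under which it is annotated. All 9 genes were found, on 11 probe sets, among 14217 genes on the 20826 probe sets (of 31042 tested) that had 1 symbol. Sost and Ankh had 2 probe sets each, and the others 1.

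Values were on a log2 scale on which each probe set had been centred on its median over the 12 arrays, so that 0 is the middle array and no level of one gene can be set against that of another, nor can a gene be called absent. The medians of the arrays lay between -0.00416 and 0.00721. Differences are log2 differences with the standard error (SE) and the Benjamini-Hochberg adjusted p of a limma fit over all genes, and a gene was called at an adjusted p under 0.05. In whole bone, fewer cells of a type and less RNA per cell cannot be told apart. Over the 4 groups, 5 of the 9 genes were called by the F test, against 35% of all genes: Dmp1 (adjusted p = 6.49e-06), Mepe (1e-05), Pdpn (0.000226), Phex (0.000403) and Phospho1 (0.0018). Sost, Fgf23, Enpp1 and Ankh were not called.

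**Figure D1:**
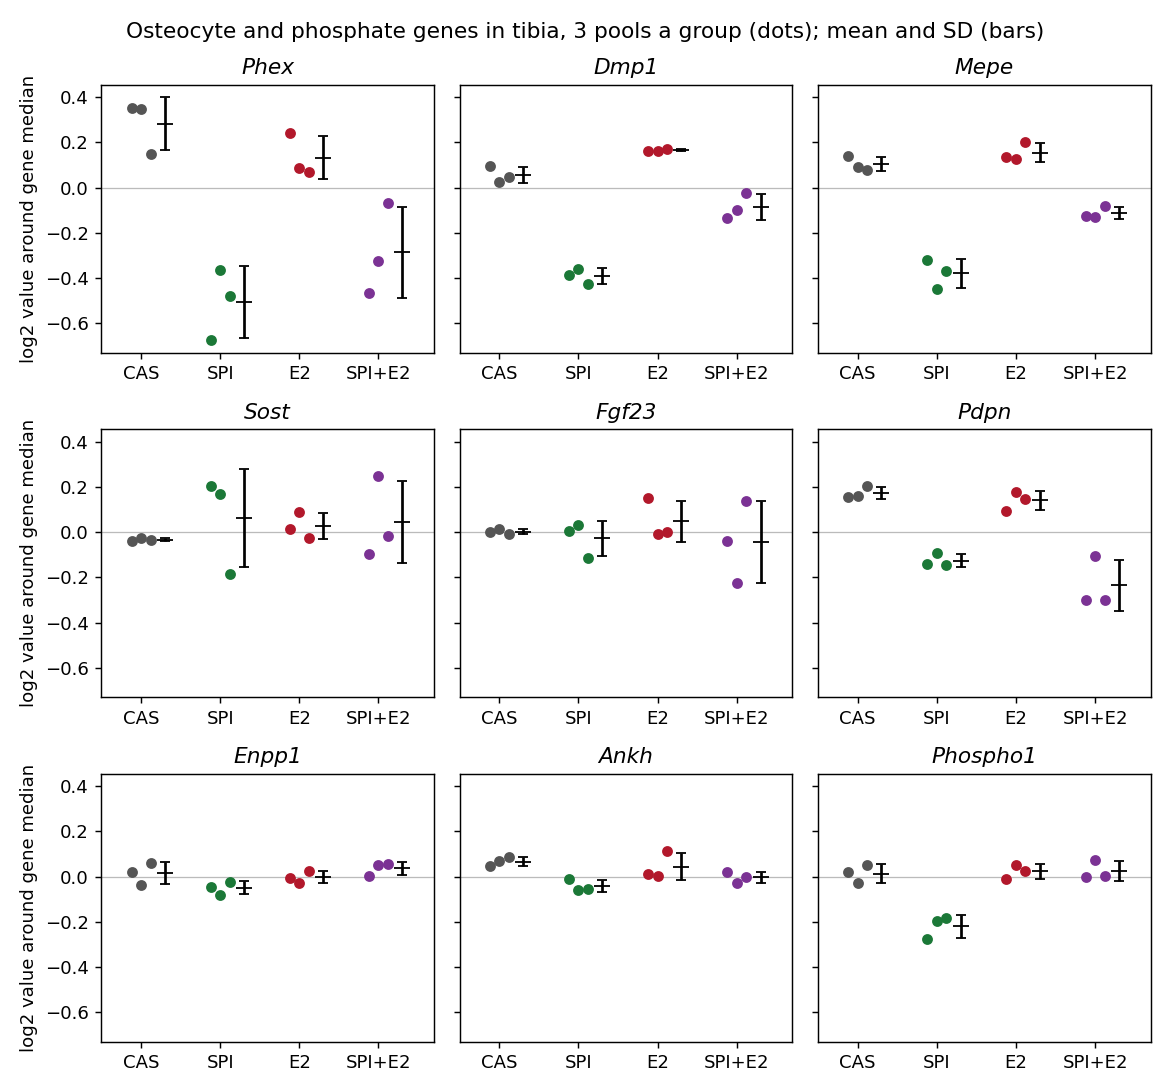
Log2 value around the gene median (y axis) of each of the 9 genes in the 4 groups (x axis); each dot is 1 pool and the bar beside the dots is the group mean with its SD (n = 3). The SPI dots of Phex, Dmp1, Mepe, Pdpn and Phospho1 all lie below the CAS dots, while those of Sost and Fgf23 are scattered around 0.

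The SPI diet on its own lowered Phex, Dmp1, Mepe, Pdpn and Phospho1 compared to CAS, with log2 differences from -0.23 to -0.79. Thus 5 of the 9 genes were lower, where 14.6% of all genes tested were lower, and 0 of the 9 were higher, where 10.7% of all genes were. The median difference of the 9 genes was -0.23, beside -0.01 over all genes. Phex alone passed 1.5-fold (1 of 9, against 2.49% of all genes). In the same comparison 6 of 8 chondrocyte marker genes were lower (median -0.79) and 0 of 7 osteoblast marker genes were called, and the part of cartilage cells in the lowering of the 5 genes was not tested.

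Phex, the endopeptidase, had the widest range. Its CAS pools were at 0.35, 0.35 and 0.15 and its SPI pools at -0.68, -0.36 and -0.48. Every SPI pool was below every CAS pool, and one CAS pool sat well under the other two. The difference was -0.79 (SE 0.106, adjusted p = 0.000248), or 1.73-fold lower.

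The matrix protein genes Dmp1 and Mepe moved by less than Phex and with less scatter. For Dmp1 the CAS pools were at 0.10, 0.03 and 0.05 and the SPI pools at -0.39, -0.36 and -0.43, a difference of -0.45 (SE 0.0408, adjusted p = 1.28e-05). For Mepe the CAS pools were at 0.14, 0.09 and 0.08 and the SPI pools at -0.32, -0.45 and -0.37, a difference of -0.48 (SE 0.0436, adjusted p = 1.16e-05). In both genes the 3 SPI pools lay together, far from the CAS pools. These were changes of 1.36-fold for Dmp1 and 1.40-fold for Mepe.

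Pdpn, the marker of young osteocytes, was at 0.15, 0.16 and 0.20 in CAS and at -0.14, -0.09 and -0.14 in SPI. It was lower by 1.23-fold (-0.30, SE 0.0537, adjusted p = 0.00181), with no overlap between the pools. Phospho1, the matrix vesicle phosphatase, was at 0.02, -0.03 and 0.05 in CAS and at -0.28, -0.20 and -0.18 in SPI. It was lower by 1.18-fold (-0.23, SE 0.0428, adjusted p = 0.00207), again with no overlap.

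The other pair of mineral genes was not called at the gene level, though 1 of the 2 Ankh probe sets was, as given below. Ankh, the transporter, was at 0.04, 0.07 and 0.09 in CAS and at -0.01, -0.06 and -0.06 in SPI, so that its pools did not overlap, yet the difference of -0.11 (95% interval -0.20 to -0.02) missed the threshold (adjusted p = 0.0732). Enpp1, which makes the pyrophosphate, differed by -0.07 (95% interval -0.15 to 0.02, adjusted p = 0.25). With Ankh, 6 of the 9 genes had SPI pools wholly apart from the CAS pools, against 40% of all genes. The Ankh value is a mean of 2 probe sets. Its SPI and CAS pools were apart on 1369249_at and overlapped on 1393439_a_at.

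Neither of the genes of signalling proteins, Sost and Fgf23, passed the test on these arrays, which measured RNA and no protein. The study itself reported lower Sost mRNA by real-time PCR, and lower sclerostin in serum, after SPI or E2. Sost was at -0.04, -0.03 and -0.03 in CAS and at 0.20, 0.17 and -0.19 in SPI, so that 1 SPI pool lay below CAS and the other two above. Its difference was 0.10 (95% interval -0.13 to 0.32, adjusted p = 0.538). Fgf23 ranged from -0.01 to 0.01 in CAS and from -0.12 to 0.03 in SPI, a difference of -0.03 (95% interval -0.21 to 0.15, adjusted p = 0.823).

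Estradiol on the casein diet called none of the 9 genes in limma, 0 higher and 0 lower, where 6.98% of all genes were higher and 7.23% lower compared to CAS. At an unadjusted p under 0.05 the count was 1, Dmp1, whose E2 pools were at 0.16, 0.16 and 0.17, all above its CAS pools. That difference was 0.11 (SE 0.0408, unadjusted p = 0.0217, adjusted p = 0.112), on the opposite side of 0 from the one with SPI. Mepe was at 0.13, 0.13 and 0.20 with E2, among and above the CAS pools (difference 0.05, 95% interval -0.04 to 0.15).

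Phex was at 0.24, 0.08 and 0.07 with E2. Its difference of -0.15 had a wide interval, from -0.38 to 0.08 (adjusted p = 0.438). The E2 difference was -0.03 for Pdpn, 0.06 for Sost, 0.05 for Fgf23, -0.02 for Enpp1, -0.02 for Ankh and 0.01 for Phospho1, and every one of these 95% intervals held 0. In 2 of the 9 genes, Dmp1 and Sost, the E2 and CAS pools did not overlap, against 34.5% of all genes. For Sost the lowest E2 pool (-0.026) lay just above the highest CAS pool (-0.028). On each of its 2 probe sets alone the E2 and CAS pools overlapped. None of the 9 reached 1.5-fold, against 1.89% of all genes.

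Because CAS served as control for both, SPI and E2 were also set against each other, in a comparison that shares its arrays with the ones above. Here 5 of 9 genes were lower with SPI than with E2 and 0 higher, where 13% of all genes were lower and 11.1% higher. They were again Phex, Dmp1, Mepe, Pdpn and Phospho1. Dmp1 differed by -0.56 (SE 0.0408, adjusted p = 4.61e-06), and Mepe by -0.53 (SE 0.0436, adjusted p = 9.13e-06). Phex was at -0.64 (SE 0.106, adjusted p = 0.00116), Pdpn at -0.27 (adjusted p = 0.00384) and Phospho1 at -0.24 (adjusted p = 0.0017).

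**Figure D2:**
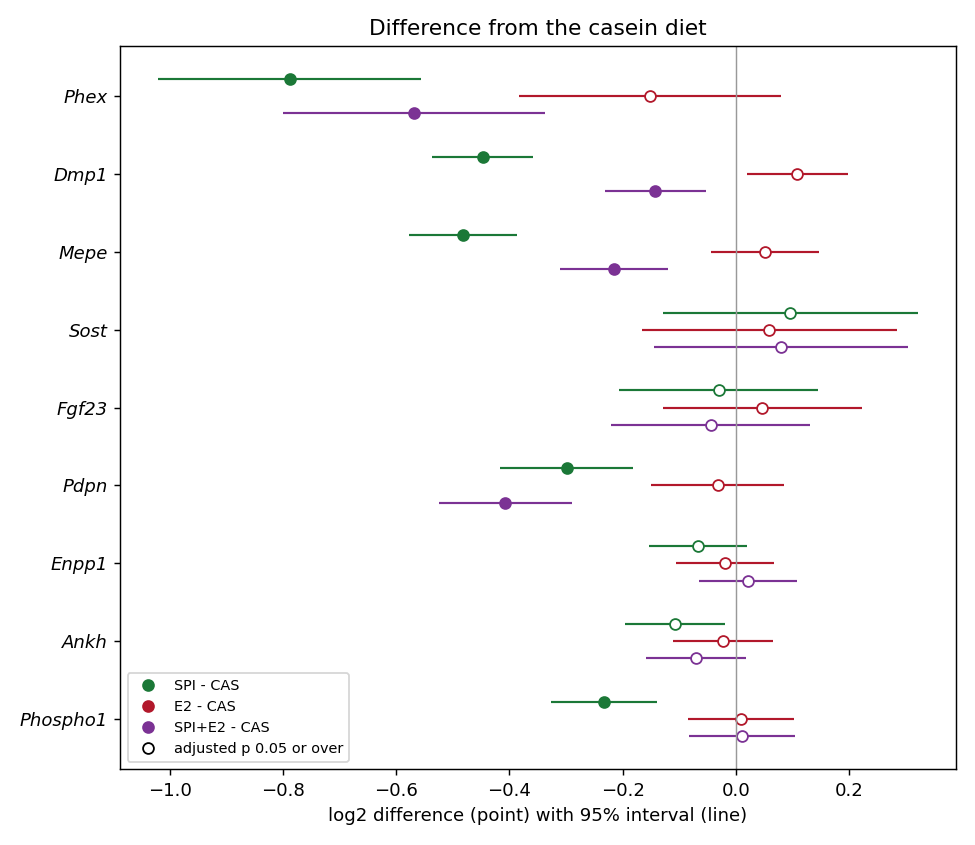
Log2 difference from CAS (x axis) of each gene (y axis) for SPI, E2 and SPI+E2; points are differences of group means, lines are 95% intervals, and filled points have an adjusted p under 0.05. Phex, Dmp1, Mepe and Pdpn are filled for SPI and SPI+E2 and open for E2, and Phospho1 is filled for SPI alone.

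When SPI and E2 were given together, Phex, Dmp1, Mepe and Pdpn were lower than in CAS and Phospho1 was not called. That made 4 of 9 genes lower, against 7.06% of all genes, and 0 higher, against 5.8%. None reached 1.5-fold, against 0.499% of all genes, though Phex did so without CAS pool 3 or SPI+E2 pool 3. The pools lay wholly apart from CAS in 5 of 9 genes, those 4 and Ankh, against 34.3% of all genes. For Ankh this held on probe set 1369249_at alone, while on 1393439_a_at the SPI+E2 and CAS pools overlapped.

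Phex with SPI+E2 was at -0.47, -0.32 and -0.07, spread more widely than in any other group. The difference from CAS was -0.57 (SE 0.106, adjusted p = 0.00481). Dmp1 was at -0.13, -0.10 and -0.03, between the CAS and the SPI pools. Its difference from CAS was -0.14 (SE 0.0408, adjusted p = 0.0405), and that call was lost when any 1 of the CAS or E2 pools, or pool 1 or 2 of SPI+E2, was left out (adjusted p from 0.0559 to 0.145). It was also lost with the pool number as a block (0.063), in a fit of the 2 groups (0.092) and with a filter on low variation (0.0712). With single probe sets it was lost too (0.0848), though the 1 probe set of Dmp1 gave the same difference.

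Mepe was at -0.13, -0.13 and -0.08 with SPI+E2, likewise between the CAS and the SPI pools. The difference from CAS was -0.22 (SE 0.0436, adjusted p = 0.00735). Pdpn was at -0.30, -0.10 and -0.30, with one pool level with SPI and the other two lower. Its difference from CAS was -0.41 (SE 0.0537, adjusted p = 0.000557). Phospho1 was at -0.0005, 0.07 and 0.0005, among and just above the CAS pools, and differed from CAS by 0.01 (95% interval -0.08 to 0.10, adjusted p = 0.905).

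Set against SPI alone, SPI+E2 had Dmp1, Mepe and Phospho1 higher: 3 of 9 genes, where 9.12% of all genes were higher, and 0 lower, where 8% were. Dmp1 was higher by 0.30 (SE 0.0408, adjusted p = 3e-04), Mepe by 0.27 (SE 0.0436, adjusted p = 0.00126) and Phospho1 by 0.24 (SE 0.0428, adjusted p = 0.00205). In each of the 3 genes, and in Enpp1, which was not called, every SPI+E2 pool was above every SPI pool. The share of all genes with pools so placed was not counted for this comparison. In the comparisons with CAS, pools lay wholly apart, either way, in 34.3% to 40% of all genes. Phex differed by 0.22 (95% interval -0.01 to 0.45, adjusted p = 0.196) and Pdpn by -0.11 (95% interval -0.23 to 0.01, adjusted p = 0.209). Without pool 2 of SPI+E2, Pdpn was called lower (-0.17, adjusted p = 0.0244).

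The effect of the diet in estradiol-treated rats, SPI+E2 against E2, covered 4 of 9 genes lower and 0 higher, where 8.23% of all genes were lower and 7.32% higher. Pdpn was at -0.37 (adjusted p = 0.000735), Phex at -0.42 (adjusted p = 0.0207), Dmp1 at -0.25 (adjusted p = 0.00166) and Mepe at -0.27 (adjusted p = 0.00171) on the log2 scale. In all 4 genes the SPI+E2 pools lay below the E2 pools. The share of all genes with pools wholly apart was not counted here, and in the comparisons with CAS it was 34.3% to 40%. The Phex call was lost without pool 1 of E2 (adjusted p = 0.082) or without pool 1 (0.0774) or pool 2 (0.0664) of SPI+E2. Phospho1 was not called (difference 0.002, 95% interval -0.09 to 0.10).

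**Figure D3:**
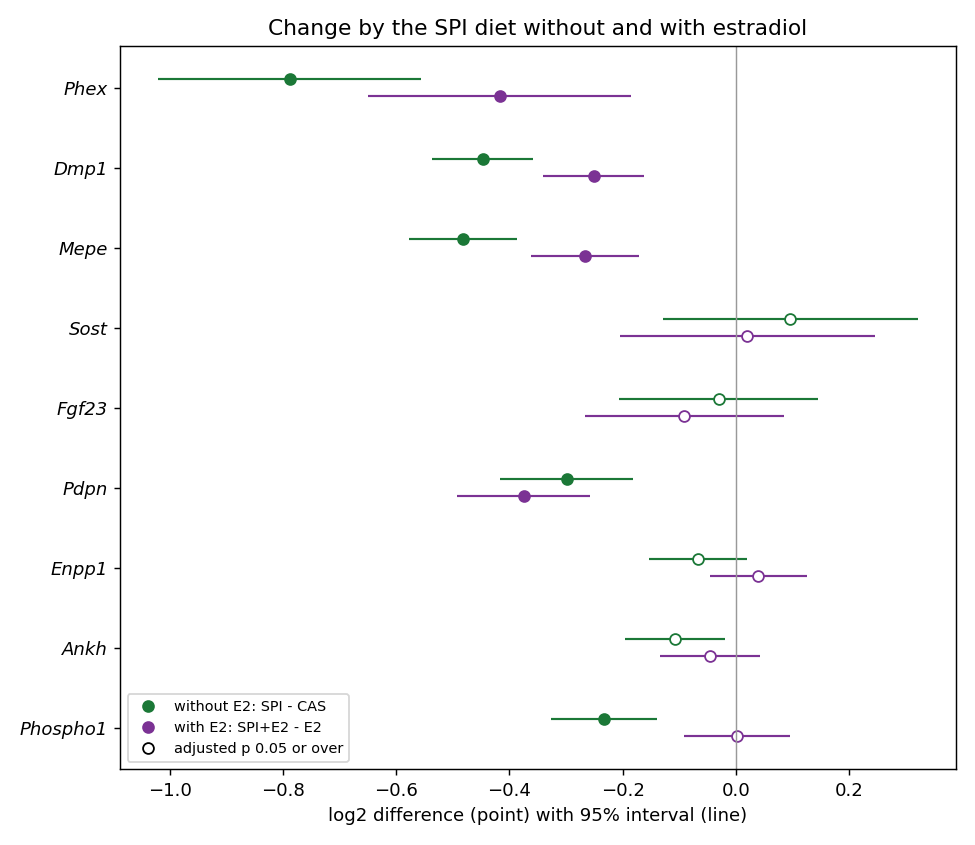
Log2 change by the SPI diet (x axis) of each gene (y axis) without estradiol (SPI minus CAS) and with it (SPI+E2 minus E2); points are differences of group means, lines 95% intervals, filled points an adjusted p under 0.05. The change of Phospho1 was -0.23 without estradiol and near 0 with it, and that of Pdpn was -0.30 and -0.37.

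Whether the diet acted differently with estradiol was tested as the change by SPI with E2 minus that without E2, which uses all 4 groups. It was above 0, meaning less lowering with estradiol, for Phospho1 (0.23, SE 0.0605, adjusted p = 0.0206), Mepe (0.22, SE 0.0616, adjusted p = 0.0339) and Dmp1 (0.20, SE 0.0577, adjusted p = 0.0387). These were 3 of 9 genes above 0, where 8.03% of all genes were, and 0 below, where 7.72% were. All 3 adjusted p-values were near the threshold. In the fit over single probe sets they were 0.0515, 0.0776 and 0.0918, with the same differences, since each of these genes has 1 probe set. Each array left out cost at least 1 of the 3 calls, and without CAS pool 3 or E2 pool 1 none of the 3 was left. For Phex the value was 0.37 with an SE of 0.15 (adjusted p = 0.126). For Pdpn it was -0.08 (95% interval -0.24 to 0.09, adjusted p = 0.578), so its lowering by the diet was not shown to differ with estradiol.

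The 9 genes differed widely in how much they varied at all. By SD over the 12 arrays Phex stood at the 98.4 percentile of all genes, Mepe at 92.7, Dmp1 at 92.3 and Pdpn at 87.1. Enpp1 stood at 2.66. Ankh stood at 5.87, but as a mean of 2 probe sets that did not move together: alone, 1369249_at had an SD of 0.104, at the 31.8 percentile of all probe sets, and 1393439_a_at one of 0.0425, at 1.21. Between pools of a group the median SD of the 9 genes was 0.0308 for CAS, 0.0427 for E2, 0.0507 for SPI and 0.0557 for the combination, beside 0.0565, 0.0583, 0.0785 and 0.0678 over all genes.

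For Sost and Ankh the value was a mean of 2 probe sets that did not move together (Pearson r over the 12 arrays -0.0967 for Sost and -0.128 for Ankh). On Sost probe set 1368969_at the CAS pools were at -0.18, 0.04 and 0.03, the SPI pools at 0.37, 0.44 and -0.11, and the E2 pools at -0.15, -0.03 and -0.13. On probe set 1391165_at the CAS pools were at 0.10, -0.10 and -0.10, the SPI pools at 0.04, -0.11 and -0.26, and the E2 pools at 0.18, 0.20 and 0.08. The narrow CAS spread of the Sost mean thus came from deviations of opposite sign. SPI minus CAS was 0.27 on 1368969_at (adjusted p = 0.199) and -0.08 on 1391165_at (adjusted p = 0.719), so neither the mean nor a single probe set passed the test for Sost.

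On Ankh probe set 1369249_at the CAS pools were at 0.14, 0.14 and 0.17 and the SPI pools at -0.04, -0.05 and -0.10. With SPI it fell by 0.21 on the log2 scale (adjusted p = 0.0162 over all probe sets). On 1393439_a_at the CAS pools were at -0.05, 0.001 and 0.008 and the SPI pools at 0.02, -0.06 and -0.01, a difference of -0.01 (adjusted p = 0.958). A call for Ankh therefore depends on which probe set is read.

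**Figure D4:**
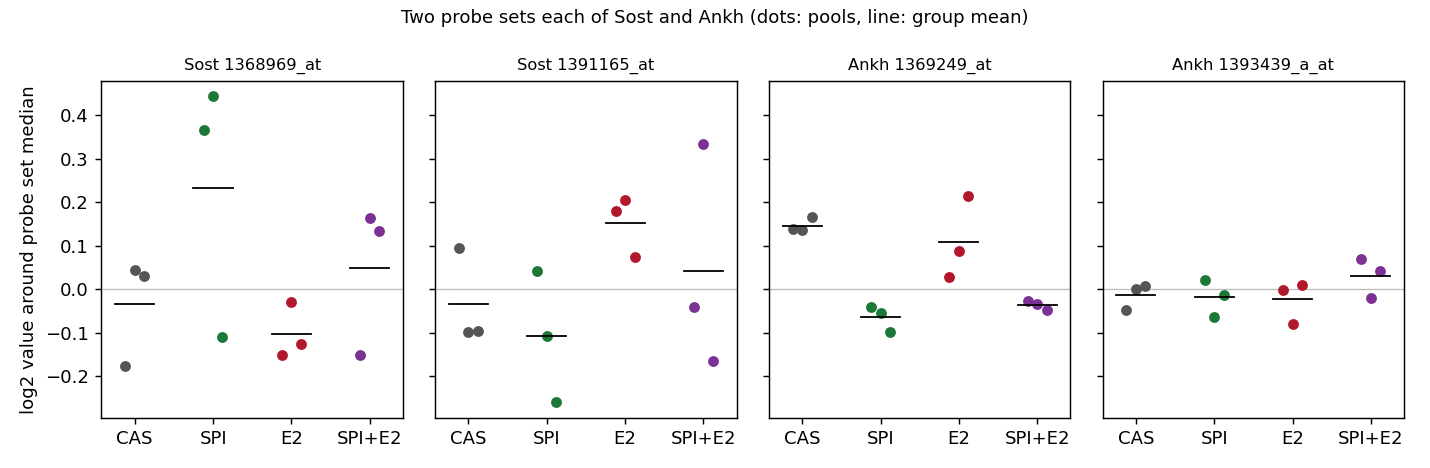
Log2 value around the probe set median (y axis) in the 4 groups (x axis) for each probe set of Sost and Ankh; dots are pools and lines group means. SPI lies above CAS on one Sost probe set and below it on the other, and the lowering of Ankh with SPI is seen on 1369249_at but not on 1393439_a_at.

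Dmp1 and Mepe sit in a cluster of 5 protein-coding genes on chromosome 14 that encode related acidic matrix proteins of bone and dentin, in the order Spp1, Mepe, Ibsp, Dmp1, Dspp. Of the 5, Dmp1 and Mepe were lower with SPI than in CAS, where 14.6% of all genes were lower, and 0 were higher, where 10.7% were. Ibsp (bone sialoprotein), which lies between them, differed by -0.01 (SE 0.047, adjusted p = 0.939), Spp1 (osteopontin) by -0.06 (SE 0.0344, adjusted p = 0.203) and Dspp by 0.13 (SE 0.0505, adjusted p = 0.0902). With SPI+E2 against E2 Ibsp was lower too, at -0.17 (adjusted p = 0.0307), together with Dmp1 and Mepe, where 8.23% of all genes were lower. With SPI against E2, where Dmp1 and Mepe were lower, Dspp was higher, at 0.16 (adjusted p = 0.0429). In that comparison 11.1% of all genes were higher and 13% lower.

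**Figure D5:**
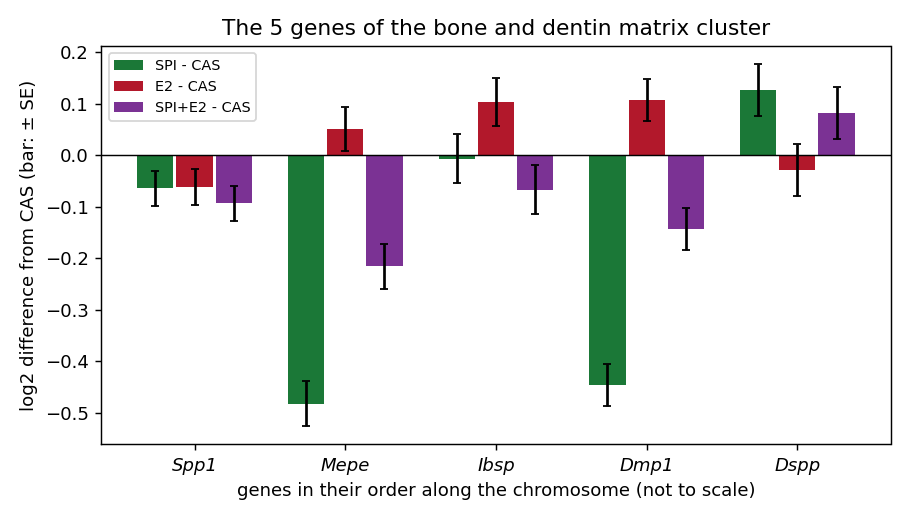
Log2 difference from CAS (y axis) of the 5 genes of the bone and dentin matrix cluster, in their order along the chromosome (x axis, not to scale), for SPI, E2 and SPI+E2; bars are differences of group means and error bars are SE. Mepe and Dmp1 have the deep SPI bars (-0.48 and -0.45), and Ibsp between them has one of -0.01.

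The promoters of Mepe and of its neighbour Ibsp are shown because with SPI the first was called lower and the second was not called. Each runs from 250 bases before to 50 after the annotated start (RefSeq, GRCr8) on the minus strand, at chr14:5736809-5737108 for Mepe and chr14:5757193-5757492 for Ibsp, read 5′ to 3′, with motif matches in capitals.
Mepe: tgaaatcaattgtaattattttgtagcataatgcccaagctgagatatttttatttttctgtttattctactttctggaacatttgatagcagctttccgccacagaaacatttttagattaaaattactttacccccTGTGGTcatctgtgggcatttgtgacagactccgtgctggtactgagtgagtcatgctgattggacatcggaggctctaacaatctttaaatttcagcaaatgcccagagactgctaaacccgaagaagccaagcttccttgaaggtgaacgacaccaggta
Ibsp: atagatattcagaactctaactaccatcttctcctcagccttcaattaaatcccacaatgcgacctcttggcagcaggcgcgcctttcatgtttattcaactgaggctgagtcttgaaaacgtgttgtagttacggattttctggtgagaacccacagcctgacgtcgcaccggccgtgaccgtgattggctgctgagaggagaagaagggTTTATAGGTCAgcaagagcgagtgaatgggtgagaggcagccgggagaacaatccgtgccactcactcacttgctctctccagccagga
The motifs searched on both strands were TATAAA (the TATA box), TGTGGT (the core bound by Runx factors), AGGTCA (a core bound by nuclear receptors) and the MEF2 motif. Over all 33469 promoters of this length they were found in 14.2%, 17.3%, 16.2% and 3.29%. Mepe had 1 match, TGTGGT at position -112 from the start. Ibsp had TATAAA on the reverse strand at -39 and AGGTCA at -34, the 2 matches sharing 1 base. Of the 9 genes, 6 had an entry (Dmp1, Mepe, Sost, Pdpn, Ankh and Phospho1), and Phex, Fgf23 and Enpp1 had none. The Dmp1 entry starts inside the annotated span of the gene. Pdpn held AGGTCA at -91, and the entries of Dmp1, Sost, Ankh and Phospho1 held none of the motifs. A match describes the letters and no more.

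Of a list of 19 other measured genes of phosphate handling and mineral regulation, 14 were not called with SPI, 3 were higher, where 10.7% of all genes were, and 2 lower, where 14.6% were, so that its counts lay near those of all genes (median -0.02). Of those called, Slc20a1, a sodium-phosphate cotransporter, was higher by 0.19 and Pth1r, the parathyroid hormone receptor, by 0.19, while Fam20c, the kinase of secreted phosphoproteins such as Dmp1, fell by 0.20 and Fgfr1, an FGF receptor, by 0.17. With E2 0 were higher (6.98% of all genes) and 1 lower (7.23% of all genes), the protease Furin, at -0.20. With SPI+E2 1 was higher (5.8% of all genes), Pth1r, by 0.26, and 2 lower (7.06% of all genes), Smpd3, a sphingomyelinase needed for mineralization, at -0.20, and Fam20c, at -0.18.

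Of 13 other measured genes used in osteocytes, 6 were not called with SPI, 2 were higher, where 10.7% of all genes were, and 5 lower, where 14.6% were (median -0.15, beside -0.01 over all genes). No test of the list was made. The higher ones were Lrp4, the sclerostin receptor, at 0.16 and Capg at 0.13, a pair named after their values were seen. Panx3, a channel protein of osteoblasts and chondrocytes, fell by 0.47, the Wnt co-receptor Lrp6 by 0.46, the transcription factor Mef2c by 0.26, and the matrix metalloproteinase Mmp14 by 0.18. With E2 0 were higher (6.98% of all genes) and 2 lower (7.23%), Panx3 at -0.27 and the mechanosensitive channel Piezo1 at -0.24. Piezo1 was among the genes lower with SPI as well, at -0.18 (adjusted p = 0.00618). With SPI+E2 2 were higher (5.8% of all genes), Lrp4 by 0.36 and Capg by 0.21, and 2 lower (7.06%), Panx3 at -0.44 and Lrp6 at -0.33.

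The genes whose values ran most like those of a member over the 12 arrays were C1qtnf3 (Pearson r = 0.959), Fkbp7 (0.952) and Aldh18a1 (0.951) for Phex, and Ndufb5 (0.982), Dmrt2 (0.977) and Ccng1 (0.977) for Dmp1. For Sost they were Kcnk10 (0.895), Obp2b (0.857) and Ahcyl2 (0.857). The arrays of a group share its treatment, so that r describes group differences as much as pools, and no test was made.

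Markers of other cell types moved with the groups. The mean level of 8 measured chondrocyte genes lay between 0.37 and 0.41 in CAS pools and between -0.40 and -0.34 in SPI pools. It lay between 0.04 and 0.08 in E2 pools and between -0.07 and -0.03 when both were given. Of these 8, 6 were lower than in CAS for SPI, 6 for SPI+E2 and 4 for E2, and 0 were higher. Of 7 osteoblast genes 0 were called for either treatment alone and 1 was lower in SPI+E2. The next counts give SPI first, then E2, then the combination. Over all genes 10.7%, 6.98% and 5.8% were higher and 14.6%, 7.23% and 7.06% lower, which also stand beside the counts above. Erythroid genes were lower in 5, 8 and 6 of 8, skeletal muscle genes in 6, 0 and 0 of 9, with 1 higher with SPI+E2, and fibroblast and periosteum genes in 3, 0 and 4 of 7, with 1 higher each time. Neuronal genes were higher in 10, 10 and 7 of 10. Of the 6 Schwann cell genes 6, 5 and 1 were higher and 2 were lower with SPI+E2. Of the 4 osteoclast genes 2, 0 and 3 were higher, and 1 was lower with E2. Of the 5 lymphatic endothelium genes, of interest for Pdpn, 1, 3 and 0 were higher and 0 lower. The part of these cell types in the changes of Phex, Dmp1, Mepe, Pdpn and Phospho1 was not tested.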

How the data were processed

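Total RNA of tibia was hybridised to 12 rat expression arrays, 3 a group, in pools as the labels number them. The deposited values are log2 intensities that the authors made by RMA (named with GCOS in the submitters' processing notes, no versions) and then normalized per chip and per gene in GeneSpring. The median of each probe set over the arrays is 0, so depth of signal and absolute level are lost. They ranged from -2.2 to 3.47. That the scale stayed log2 after that step was taken from the methods.

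Of 31099 rows 57 control probe sets were left out. By the platform annotation 20826 probe sets had 1 symbol, 436 several and 9780 none, and probe sets of a symbol were averaged (4525 genes had more than 1). The fit used limma 3.58.1 (with statmod 1.5.0, R 4.3.3), with 4 group means over the 12 arrays, empirical Bayes moderation and Benjamini-Hochberg adjustment over 14217 genes. It was checked on simulated data for SPI against CAS alone, with changes of 1.5-fold or more. Smaller changes, the other comparisons and the interaction term were outside that check. Counts at 1.5-fold or of pools that do not overlap carry no test. The members were named by list. For the other lists up to 4 called genes with the largest difference were named. Lrp4, Capg and Piezo1 of the osteocyte list were named with SPI beyond that rule. For Phex, Dmp1 and Sost the 3 most similar genes by Pearson r were named, and marker lists were given by counts. The members and lists were chosen with earlier results of these data known, so their directions are not independent support. Sequences are RefSeq entries on GRCr8. Alternatives covered the pool number as a block, 2-group fits, quantile normalization, median centring, robust variances, array weights, single probe sets, unadjusted p, a plain analysis of variance, natural logarithms, a filter on low variation and each array left out.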

Additional observations from a re-analysis of the deposited data

Results flagged for a closer look

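In 3 genes the change by the SPI diet differed with and without estradiol by the limma interaction term over 12 arrays. The value for Dmp1 was 0.20 (SE 0.0577, adjusted p = 0.0387), for Mepe 0.22 (SE 0.0616, adjusted p = 0.0339) and for Phospho1 0.23 (SE 0.0605, adjusted p = 0.0206). The diet's log2 difference without and with estradiol was -0.45 and -0.25 in Dmp1, -0.48 and -0.27 in Mepe, and -0.23 and 0.002 in Phospho1. All 3 calls were lost with single probe sets (adjusted p = 0.0918, 0.0776 and 0.0515). Each of the 3 genes has 1 probe set, so its difference stayed the same and only the fit, over 31042 probe sets in place of 14217 genes, changed. Dmp1 and Mepe were lost under quantile normalization (0.222 and 0.147) and with a filter on low variation (0.0675 and 0.0546), Dmp1 also with the replicate block (0.064), and each array left out cost at least 1 call. Marker lists of other cell types had interaction terms too, beside a median of 0.04 over all genes. Of all genes 8.03% were called above 0 and 7.72% below. Of 8 chondrocyte genes 6 were called above 0 (median 0.59), and of 8 erythroid genes also 6 (median 0.74). All 10 neuronal genes were called below 0 (median -1.54), as were all 6 Schwann cell genes (median -1.59). Their part in the 3 genes was not tested.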

How the results depend on the processing

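Of 24 called gene differences, 225 of 237 results under the alternatives kept direction and threshold and 12 lost the threshold. Of 288 fits with 1 array left out, 256 kept both and 32 lost the threshold. None of these reversed. The 237 include the same fit read at an unadjusted p, which a called difference passes by construction. They also include the plain analysis of variance, which was read at an unadjusted p, a laxer threshold. The losses were in Dmp1 with SPI+E2 against CAS, Phex with SPI+E2 against E2, and the interaction terms of Dmp1, Mepe and Phospho1. Those with single probe sets came with unchanged differences, and the cause of the others was not tested. The count of 3 interaction calls became 1 under quantile normalization, 0 with single probe sets and 1 with the filter on low variation (which left out Fgf23, Enpp1 and Ankh), and ranged from 0 to 2 with 1 array left out: 0 without CAS pool 3 or E2 pool 1, and 1 without CAS pool 1, SPI pool 3, E2 pool 2, SPI+E2 pool 2 or SPI+E2 pool 3. Under quantile normalization the interaction adjusted p was 0.222 for Dmp1 and 0.147 for Mepe. For E2 against CAS 1 gene, Dmp1, passed at an unadjusted p and by plain analysis of variance. The 1.5-fold count for SPI against CAS was 3 if the values are natural logarithms. For SPI+E2 against CAS it was 1 under quantile normalization, 1 with array weights, 2 with natural logarithms, and 0 to 1 with 1 array left out, 1 without CAS pool 3 or SPI+E2 pool 3. Ankh with SPI against CAS passed with array weights (adjusted p = 0.0442) and on its more variable probe set (0.0162).

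Whether pool numbers paired the samples was not settled. Deviations of same-numbered pools correlated between -0.0741 and 0.244 (median 0.0439), over 0.1 in 4 of 18 pairs. For pools of different number the range was -0.23 to 0.202 (median -0.015), over 0.1 in 3 of 36 pairs. Of 12 arrays, 6 correlated best with their own number. With the replicate block 3 genes were called for SPI+E2 against CAS and 2 for the interaction, in both cases without Dmp1 (adjusted p = 0.063 and 0.064). It changed no other call. The 3 pools a group and the centred values limit what small differences can be seen.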
